A study of Arabidopsis thaliana with 4 samples.

Results

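The plant inhibitors of cyclin-dependent kinases described here are 10 genes of Arabidopsis thaliana: the 7 KRP genes (KRP1 to KRP7) and 3 genes of the SIAMESE family, SIM, SMR1 and SMR5. They were chosen by locus identifier as members of these families, and all 10 are among the 37686 genes of the expression table. Transcript levels were measured in detached leaves of wild-type Col-0 plants, a standard laboratory accession. Leaves with part of the petiole were cut from seedlings aged 12 days, raised at 22 °C with 16 h of light and 8 h of darkness. The wounded end was collected either before culture (time 0, 2 libraries) or after 2 days at the same temperature in the dark on B5 medium, used for plant tissue culture, with added sucrose (2 libraries). All 4 libraries share genotype and seedling age, while time since detachment, darkness, medium and plant age differ together between the groups.

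KRP proteins resemble the animal Kip inhibitors, and they bind the kinase CDKA;1 with D-type cyclins and block its activity. SIAMESE and SIAMESE-RELATED (SMR) proteins are a plant-specific family that holds back mitotic kinase activity and so favours endoreduplication, in which nuclei copy DNA without dividing. Both families are regulated by transcription, by protein degradation and, for some SMR genes, by DNA damage signalling, so that a transcript level is not a measure of inhibitor activity.

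Levels are in TPM, transcripts per 1000000 after division by transcript length, as the authors deposited them, so they can be set against each other between genes. A gene was tested if its mean over the 4 libraries was at least 1 TPM, and it was called higher or lower at 2 days when limma, fitted to log2(TPM + 1) of all tested genes, gave a Benjamini-Hochberg adjusted p below 0.05. Of the 10 inhibitors 9 were tested, of which 5 were called higher (KRP1, KRP3, KRP5, KRP6 and SMR1), 1 lower (KRP4) and 3 neither (KRP2, KRP7 and SIM). Among all 19078 tested genes 68.8% were called, 39.2% higher and 29.5% lower, so the 6 calls among 9 are near the background share. The median log2 difference of the tested inhibitors was 0.86, beside 0.09 over all tested genes. This median is the value of KRP3, a gene near the testing limit. The median was 0.31 and 1.41 with pseudocounts of 5 and 0.1, and 0.45 under quantile normalization. With a limit of 5 TPM it was 1.32, the value of KRP5, as KRP3 and KRP7 dropped out. KRP1 and KRP5 passed that higher limit only through their 2-day level, so the 1.32 favours genes that rose. The libraries of the 2 groups did not overlap for 6 of the 9, whereas 86% of all tested genes showed no overlap.

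**Figure D1:**
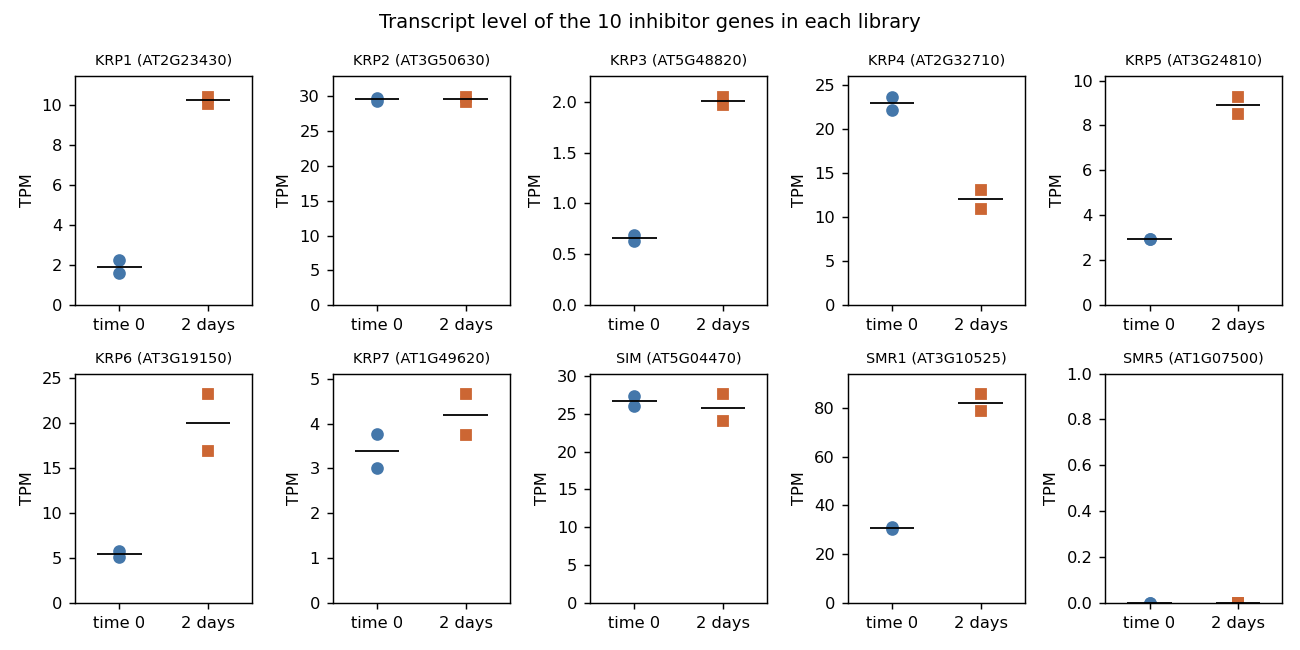
TPM of each of the 10 inhibitors in each library, with circles for time 0, squares for 2 days of culture and a line at the mean of each group of 2. SMR1 rose furthest in TPM, from a mean of 30.7 to 82.2, KRP4 fell from 22.9 to 12.0, and SMR5 is listed at 0 throughout.

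The KRP proteins differ over most of their length and share a short end. In the RefSeq annotation (TAIR10.1) they have 189 (KRP5) to 289 (KRP4) residues encoded in 3 or 4 coding exons, and global alignment gave identities from 23.1% for KRP2 and KRP4 to 50% for KRP6 and KRP7. KRP1 and KRP2, whose transcripts behaved differently here, share 44.7% of their aligned residues. The shared end lies within the region through which KRP proteins bind the cyclin and the kinase. Its coding sequence is shown 5′ to 3′ for a pair of genes that rose, the most abundant KRP gene and the one that fell, with capitals for the 8 codons whose residue is the same in all 7 KRP proteins. Each stretch runs from the last tyrosine and asparagine codon pair before the final tryptophan codon up to that codon. The tyrosine, asparagine and tryptophan at its ends are therefore shared by the way the stretch was cut.
KRP1 (chromosome 2, minus strand, codons 171 to 187): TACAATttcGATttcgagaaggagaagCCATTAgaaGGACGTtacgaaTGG
KRP6 (chromosome 3, minus strand, codons 177 to 193): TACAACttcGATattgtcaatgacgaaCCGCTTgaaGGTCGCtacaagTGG
KRP2 (chromosome 3, plus strand, codons 187 to 204): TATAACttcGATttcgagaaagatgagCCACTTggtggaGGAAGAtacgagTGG
KRP4 (chromosome 2, plus strand, codons 268 to 284): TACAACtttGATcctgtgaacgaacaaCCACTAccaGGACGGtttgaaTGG
The stretch has 17 codons in KRP1, KRP6 and KRP4 and 18 in KRP2. No 50-base window of any of the 10 inhibitor transcripts occurs in the same orientation in a transcript of another gene.

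KRP1 (AT2G23430), which restrains cell division when overproduced, had the largest fold difference in mean TPM among the tested inhibitors. The time 0 libraries had 1.61 and 2.23 TPM, and the cultured libraries 10.39 and 10.01 TPM. Both cultured libraries lay well above both time 0 libraries, with a 5.31-fold higher mean TPM. The log2 difference was 1.95 (SE 0.135, 95% interval 1.60 to 2.29, limma adjusted p = 0.000161), and 6.36% of all tested genes had a larger one.

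The promoter of KRP1 is shown because it holds many copies of AACGG, the core of the mitosis-specific activator (MSA) element bound by MYB3R transcription factors. The 250 bases before the annotated transcript start (RefSeq, TAIR10.1, chromosome 2, minus strand, 5′ to 3′) have the core on either strand in capitals, as AACGG or CCGTT, and the last capitals begin a copy that runs past the start.
KRP1 promoter: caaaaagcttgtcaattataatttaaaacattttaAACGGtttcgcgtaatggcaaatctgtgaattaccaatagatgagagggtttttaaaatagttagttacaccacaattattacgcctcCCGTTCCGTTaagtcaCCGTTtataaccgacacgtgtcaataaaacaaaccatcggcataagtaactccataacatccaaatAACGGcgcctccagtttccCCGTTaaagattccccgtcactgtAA
In a window of 250 bases before and 50 after the start KRP1 has 7 matches, and 2 of 27443 promoters (0.00729%) have at least that many. One or more matches occur in 24.7% of all promoters, and among the inhibitors also in KRP7 (5 matches), KRP2 (3), KRP3 (1) and KRP6 (1). KRP7 and KRP2, next in number of matches, were not called. This promoter was selected after its matches had been counted, and a match describes letters and not a bound site. On the same windows the E2F site, searched as TTTCCCGC or TTTGGCGC on both strands, was in 1.21% of promoters and in 0 of the 10 inhibitors. The palindrome recognised by the DNA damage regulator SOG1, CTT and AAG separated by 7 bases, was in 11.8% of promoters, with 2 matches in SMR5 and 1 each in KRP6 and KRP7.

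KRP6 (AT3G19150) is known from gamete formation, where its removal by ubiquitin ligases lets the germ cell lineage divide. Its level was 5.08 and 5.73 TPM at time 0 and 16.88 and 23.15 TPM at 2 days. In TPM the cultured libraries differed from each other more than for any other KRP gene, yet both exceeded the time 0 libraries, and the mean rose 3.70-fold. The log2 difference was 1.70 (SE 0.161, interval 1.29 to 2.11, limma adjusted p = 0.000474).

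KRP5 (AT3G24810), a regulator of endoreduplication and cell growth in the root, measured 2.96 TPM in each time 0 library, against 8.52 and 9.28 TPM after culture. The groups were far apart and the mean rose 3.01-fold, with a log2 difference of 1.32 (SE 0.0967, limma adjusted p = 0.000191). KRP3 (AT5G48820), another KRP inhibitor, was near the testing limit, with 0.69 and 0.63 TPM at time 0 and 2.05 and 1.97 TPM at 2 days. It too was separated between the groups and 3.05-fold higher in mean TPM, with a log2 difference of 0.86 (SE 0.141, limma adjusted p = 0.00366). Since its mean over all libraries was 1.33 TPM, KRP3 passed the limit of 1 TPM only through its level at 2 days. The log2 differences of low genes depend on the pseudocount: with 5 in place of 1, KRP1 stood at 1.14, KRP5 at 0.80 and KRP3 at 0.31, and with 0.1 at 2.37, 1.56 and 1.47, all still called. KRP1 had the largest log2 difference with pseudocounts of 1 and 0.1, whereas with 5 SMR1 (1.28) and KRP6 (1.25) were above it. Quantile normalization gave 0.45 for KRP3.

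KRP4 (AT2G32710), which in dividing shoot cells ties cell size to DNA content, was the inhibitor that fell. Its level was 22.13 and 23.63 TPM at time 0 and 13.11 and 10.89 TPM at 2 days. Both cultured libraries lay below both time 0 libraries, and the time 0 mean was 1.91-fold higher. The log2 difference was -0.88 (SE 0.104, interval -1.15 to -0.61, limma adjusted p = 0.00106), and 12.4% of tested genes had a lower value. Of the 50-base windows of KRP4 transcripts, 36.7% occur on the opposite strand in transcripts of CB5-B (AT2G32720), a cytochrome b5 gene that rose from 25.49 and 26.69 TPM to 50.82 and 50.88 TPM. The direction of KRP4 was thus opposite to that of its overlapping neighbour. The strand setting of the counting is not given in the sources used here, and without strand the reads of such a pair cannot be told apart.

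KRP2 (AT3G50630), a brake on the divisions that start lateral roots and a gene repressed by auxin, was level between the groups. Its TPM values were 29.31 and 29.81 before culture and 29.94 and 29.15 after it. The ranges overlapped, and the 95% interval of the log2 difference ran from -0.15 to 0.15 (limma adjusted p = 0.991), which leaves room for changes of that size. KRP7 (AT1G49620), the closest relative of KRP6 in the family, had 3 and 3.76 TPM before culture and 4.65 and 3.74 TPM after it. Its groups overlapped as well, with a log2 difference of 0.25 and an interval from -0.14 to 0.63 (limma adjusted p = 0.201).

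**Figure D2:**
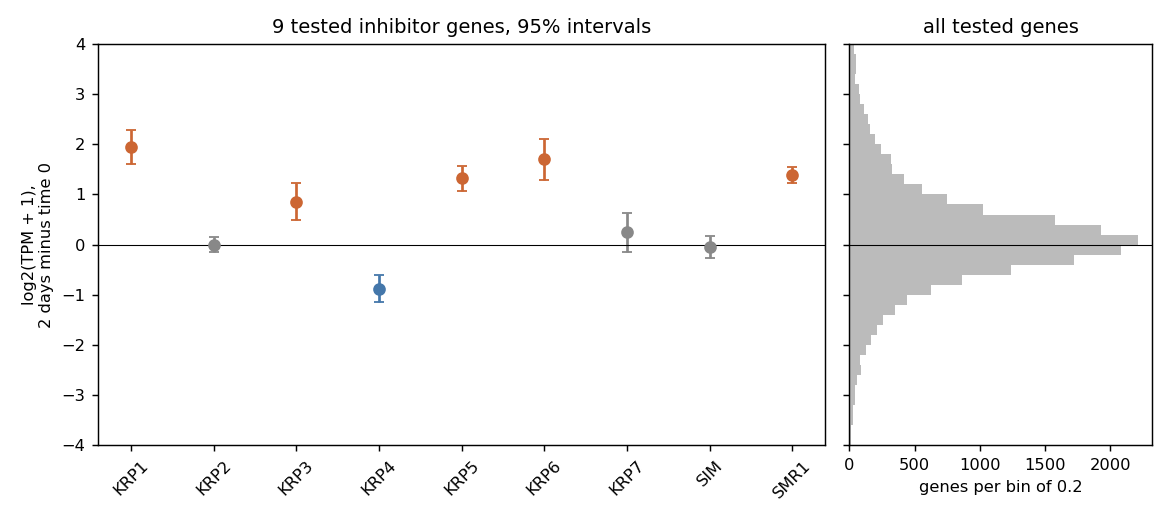
Log2 difference of each tested inhibitor between 2 days and time 0 with its 95% interval (left; orange called higher, blue called lower, grey not called) beside the distribution over all tested genes (right), from which 271 genes beyond 4 in either direction are not drawn. The 5 inhibitors called higher lie between 0.86 and 1.95 and KRP4 at -0.88, within the range where many other genes lie.

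Both the size and the make-up of the KRP transcript pool differed between the groups. The summed level of the 7 KRP genes was 64.78 and 68.75 TPM at time 0 and 85.54 and 88.19 TPM at 2 days, a log2 ratio of the means of 0.38. KRP2 and KRP4 together made up 79.4% and 77.7% of that sum at time 0 and 50.3% and 45.4% at 2 days. KRP1, KRP3, KRP5 and KRP6 together went from 16.0% and 16.8% to 44.2% and 50.4%. These shares are ratios within a library, so a single scaling factor per library does not change them, while quantile normalization can. The ratio of KRP4 to KRP1 was 13.7 and 10.6 at time 0 and 1.26 and 1.09 after culture, so that transcripts of these genes came to similar levels.

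**Figure D3:**
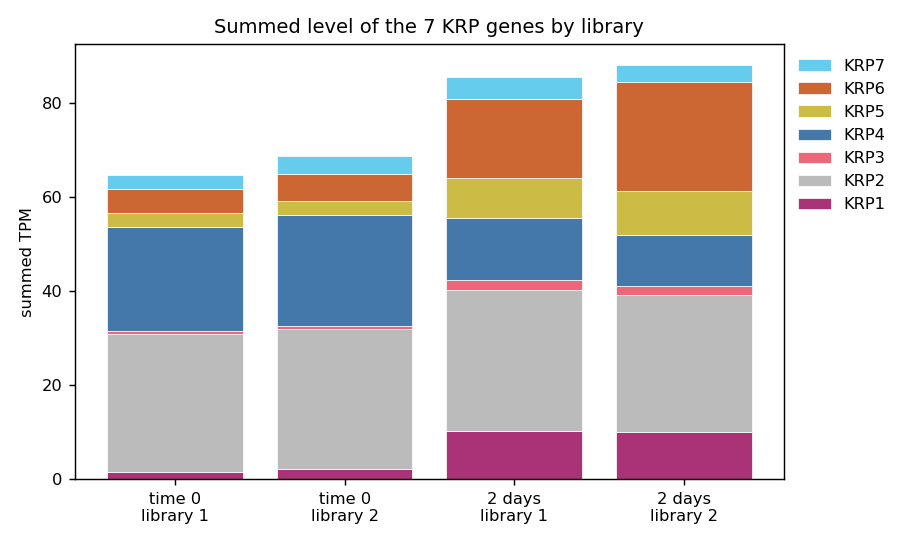
Summed TPM of the 7 KRP genes in each library, split by gene into stacked segments. KRP2 and KRP4 fill most of both time 0 bars, while at 2 days KRP1, KRP5 and KRP6 take a larger share of a taller bar.

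SIM (AT5G04470), the founding member of its family, keeps leaf hairs (trichomes) single-celled. The values, 27.31 and 25.97 TPM before culture and 24.02 and 27.55 TPM after it, overlapped between the groups. Its log2 difference was -0.05 with an interval from -0.27 to 0.17 (limma adjusted p = 0.637). Of its 50-base windows 25.4% lie opposite AT5G04475, which was not called either and ran from 19.77 to 30.33 TPM over the 4 libraries.

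SMR1 (AT3G10525), also called LOSS OF GIANT CELLS FROM ORGANS (LGO), is required for the large endoreduplicated cells of the sepal and leaf epidermis. It was the most abundant inhibitor in both groups, with 31.13 and 30.36 TPM at time 0 and 78.76 and 85.55 TPM at 2 days. The groups were far apart relative to the spread within them, and the mean rose 2.67-fold. The log2 difference was 1.39 (SE 0.0637, interval 1.23 to 1.55, limma adjusted p = 4.31e-05), which 10.9% of tested genes exceeded. By level SMR1 moved from percentile 71.2 to percentile 88.2 of the tested genes. It shares 32.7% of its 50-base windows, on the opposite strand, with AT3G10527, which was called higher as well, from 70.65 and 74.46 TPM to 151.43 and 175.73 TPM. This neighbour was the more abundant of the pair in every library, and its part in the SMR1 values was not tested.

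SIM and SMR1 encode proteins of 127 and 128 residues, each in a single coding exon, with 64.7% identity over the alignment. Their transcript levels were close at time 0, with a ratio of SMR1 to SIM of 1.14 and 1.17, and separate after culture, with ratios of 3.28 and 3.11. SMR5 (AT1G07500), of 82 residues and with 32.9% identity to SIM, is a target of SOG1 induced by DNA damage and oxidative stress. It is listed at 0 in all 4 libraries and was not tested. All of its windows (100%) lie opposite the protease gene ftsh10 (AT1G07510), which was at 10.06 and 9.88 TPM and then at 11.3 and 11.1 TPM. As TPM keeps no depth, the level below which SMR5 would go undetected is unknown. The strand setting is not given either, and without strand SMR5 reads could not be told apart from those of ftsh10. The listed 0 therefore does not show that SMR5 transcripts were absent. The summed level of SIM, SMR1 and SMR5 rose 1.88-fold in mean, from 58.44 and 56.33 TPM to 102.78 and 113.1 TPM. That rise came from SMR1, as the SIM mean was 26.6 and then 25.8 TPM and SMR5 is listed at 0. The overlap of SMR1 with AT3G10527 applies to the sum as well.

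In order of mean TPM, the inhibitors at time 0 ran SMR1, KRP2, SIM, KRP4, KRP6, KRP7, KRP5, KRP1, KRP3 and SMR5. Only KRP7 and KRP5 were closer to each other than the sum of their SDs (a gap of 0.42 against 0.537 TPM). At 2 days the order was SMR1, KRP2, SIM, KRP6, KRP4, KRP1, KRP5, KRP7, KRP3 and SMR5. There, SIM and KRP6 (gap 5.77, summed SDs 6.93 TPM) and KRP4 and KRP1 (gap 1.80, summed SDs 1.84 TPM) did not differ beyond their spread. KRP1 moved from place 8 to place 6 and KRP7 from 6 to 8, KRP6 and KRP4 exchanged places, and the first 3 places were the same in both groups.

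The other genes of the SMR family moved in both directions. Of 8 listed, 7 were tested, with 4 higher and 1 lower (median log2 difference 0.78). That median is the value of AT5G40460, at 0.60 and 0.90 TPM and then 1.74 and 2.27 TPM. AT5G40460 passed the testing limit only through its 2-day level and lost its call under quantile normalization (limma adjusted p = 0.12). The median was 0.28 with a pseudocount of 5, 1.225 with 0.1, 0.38 under quantile normalization and 0.13 with a limit of 5 TPM, which only 2 genes met. SMR4 (AT5G02220) went from 0.74 and 0.40 TPM to 3.57 and 4.48 TPM (log2 difference 1.68) and, like KRP3, passed the testing limit only through its 2-day level. AT1G08180 rose from 12.11 and 12.49 TPM to 27.75 and 30.06 TPM (1.17). AT2G28870 went down, from 9.33 and 8.25 TPM to 5.23 and 3.38 TPM (-0.90), a call lost without the first time 0 library (limma adjusted p = 0.0571), when 3 of the list were higher and 0 lower. SMR7, which like SMR5 responds to DNA damage, was not called, with 0.89 and 1.08 TPM at time 0 and 0.79 and 1.43 TPM at 2 days.

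The direct partners of the inhibitors are CDKA;1 and the D-type cyclins, which start the cycle by phosphorylating the retinoblastoma-related protein RBR1. CDKA;1 had 77.34 and 79.19 TPM before culture and 85.11 and 86.03 TPM after it, a log2 difference of 0.13 that was not called (limma adjusted p = 0.0685) and that passed the threshold with no filter on low values (0.0481). Of the 8 tested D-type cyclins 4 were higher and 2 lower (median 0.49). CYCD2;1 rose most, from 20.36 and 20.46 TPM to 53.96 and 53.69 TPM (log2 difference 1.36). CYCD4;1 (1.02), CYCD3;3 (0.80) and CYCD3;1 (0.69) were also called higher in log2 difference. CYCD1;1 (-0.78) and CYCD3;2 (-0.69) were called lower, while CYCD5;1 (0.23) and CYCD6;1 (0.28) were not called. CYCD4;2 stayed below the testing limit with 0.66 to 1.17 TPM, and CYCD7;1 had 0.23 and 0.10 TPM at time 0 and is listed at 0 at 2 days. Each of 3 cyclins missed the threshold when either of 2 libraries was left out, with the direction unchanged. CYCD1;1 was at -0.83 and -0.73 without the first or the second time 0 library (limma adjusted p = 0.0506 and 0.0734). CYCD3;1 was at 0.56 and 0.51 without the first time 0 or the second 2-day library (0.0629 and 0.0716), and CYCD3;2 at -0.75 and -0.63 without the first or the second 2-day library (0.0538 and 0.0807).

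Set against these partners, the KRP pool was larger at 2 days relative to CDKA;1 and smaller relative to the summed D-type cyclins. Summed KRP transcripts per CDKA;1 transcript came to 0.838 and 0.868 before culture, and to 1.01 and 1.03 after it. The ratio of summed KRP to summed D-type cyclins was 0.795 and 0.762 at time 0 and 0.697 and 0.733 at 2 days, as the cyclin sum itself went from 81.44 and 90.27 TPM to 122.79 and 120.37 TPM. Most of that rise came from CYCD2;1, at 20.36 and 20.46 TPM and then 53.96 and 53.69 TPM. The lower ratio to the cyclin sum rests on this gene and does not describe the D-type cyclins in general. Neither ratio was given a test.

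Among 9 tested B-type cyclins, which drive mitosis, 4 were higher and 0 lower (median 0.46), led by CYCB1;3 (log2 difference 1.34) and CYCB2;2 (1.17). The share called was 44.4%, below the 68.8% of all tested genes, and the number called changed when single libraries were left out. Among 8 tested A-type cyclins 2 were higher and 3 lower (median 0.00), with CYCA2;3 (-1.69), a cyclin that restrains endoreduplication, and CYCA1;2 (-1.51) down and CYCA2;2 (0.50) up. The counts of this list changed with single libraries and scaling, to 0 higher and 2 lower without the first time 0 library, 1 and 2 without the second time 0 or the first 2-day library, and 0 and 3 under quantile normalization. CYCA2;2 lost its call without the first time 0 library (limma adjusted p = 0.0767) and under quantile normalization (0.0647), and CYCA3;1 (0.35) and CYCA2;4 (-0.40) lost theirs in 7 and 5 alternatives. Of 11 kinases and cofactors, 5 were higher and 0 lower (median 0.33), with CDKB1;1 (1.15), a kinase of the G2 to M transition, and CKS2 (1.12), a kinase-docking subunit, first. The share called in this list was 45.5%, also below that of all tested genes. Under quantile normalization 5 of this list were higher and 1 lower (median 0.05). After rescaling without organelle and the 100 most abundant genes 5 were higher and 2 lower (0.23).

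Downstream of the kinases, 9 of 10 DNA replication genes were called higher and 0 lower (median 0.74), among them PCNA1 (log2 difference 1.15), the polymerase clamp, and MCM4 (0.86), a subunit of the replicative helicase. Of 9 E2F, DP and retinoblastoma-related genes 3 were higher and 1 lower (median 0.28), a share of 44.4% beside 68.8% of all tested genes. DEL1 (0.76), a repressor of endocycle onset, and DPA (0.54), a partner of E2F factors, rose. DEL2 (-1.36) fell, and passed the testing limit only through its time 0 level. Of 5 tested genes of the anaphase-promoting complex, 1 was higher, CCS52A1 (0.44), an activator that favours endoreduplication, and 2 were lower, OSD1 (-0.64), an inhibitor of the complex, and CCS52B (-0.58), an activator.

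Among 6 ubiquitin ligase genes tied to KRP protein turnover, 2 were higher and 1 lower (median 0.08). RHF1A, whose product acts on KRP6, rose from 18.91 and 19.64 TPM to 40.16 and 37.70 TPM (log2 difference 0.98). The KRP6 transcript was higher as well, and a link between these levels was not tested. SKP2B (0.54) and RHF2A (-0.20) were called with smaller differences, and each lost its call in 6 of 12 alternatives. Without either time 0 library the list had 1 gene higher and 0 lower. Without single libraries the limma adjusted p of these genes reached 0.144 and 0.203, in the first case without the first and in the second without the second time 0 library. FBL17, the F-box protein gene that targets KRP6 and KRP7 in pollen, was not called, at 31.23 and 30.90 TPM and then 30.06 and 27.89 TPM.

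Among genes known upstream of the inhibitors, the DNA damage list had 7 of 9 tested members higher and 1 lower (median 0.55). Without the first time 0 library 4 were higher and 0 lower, without the second 5 and 0, and under quantile normalization 4 and 2, with SOG1 and PARP2 losing their calls in all of these and BRCA1 in the first and the last. TSO2 (log2 difference 1.20), a ribonucleotide reductase subunit, and WEE1 (0.86), a checkpoint kinase, rose, while PARP1 (-0.42), a poly(ADP-ribose) polymerase, was lower and lost its call without the first or the second time 0 library (limma adjusted p = 0.0718 and 0.108). TSO2 is also an S-phase gene. Of 4 MYB3R factors 1 was higher and 2 lower (median -0.31). MYB3R4 (0.53), an activator of mitotic genes, lost its call without the first time 0 library (limma adjusted p = 0.0517). MYB3R3 (-0.31), a repressor, and MYB3R1 (-0.30) lost theirs without any one of the 4 libraries, with p up to 0.174 and 0.225. Without the first time 0 library 0 of the 4 factors were called. Of 7 tested trichome and epidermis regulators 0 were higher and 3 lower (median -0.21), and 5 and 6 lower under quantile normalization and rescaling without organelle and the 100 most abundant genes. GL2 (-1.99), a trichome factor, fell and passed the testing limit only through its time 0 level. Also lower was ATML1 (-1.63), an epidermal factor that acts upstream of SMR1 in sepals. ATML1 went from 73.3 and 69.29 TPM to 25.17 and 19.89 TPM, while SMR1 was higher. A link between these levels was not tested.

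Over the 12 lists together 93 of 101 genes were tested, with 42 higher, 16 lower and 35 not called. The share called was 62.4%, beside 68.8% of all tested genes, and the median log2 difference was 0.29 beside 0.09. By list the share ran from 42.9% (trichome and epidermis regulators) to 90% (DNA replication). It was above 68.8% for the D-type cyclins, other SMR genes, MYB3R factors, DNA damage and DNA replication lists, and below it for the rest. After quantile normalization the split was 34 higher and 24 lower, and after rescaling without organelle and the 100 most abundant genes 39 and 23. The directions called for the 6 inhibitors were the same in both.

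Tissue markers also differed between the groups, though not all of them. The 4 leaf mesophyll markers summed to 22079 and 20979 TPM at time 0 and to 3190 and 2936 TPM at 2 days, with 3 lower and LHCB2.2 higher. The 3 phloem markers summed to 171.4 to 179.39 TPM and then 138.26 to 141.93 TPM (1 of 3 lower), and the 3 xylem markers to 230.32 to 235.31 TPM and then 113.24 to 118.19 TPM (2 of 3 lower). All 4 root hair and root cap markers are listed at 0 at time 0. At 2 days they summed to 4.52 and 8.59 TPM, nearly all from SMB and RHD6, with COBL9 and BRN1 each at or below 0.03 TPM. In such bulk samples fewer cells of a type and less RNA per cell cannot be told apart, and the part of these shifts in the inhibitor values was not tested. Separate plants or cultures are not stated for the replicate libraries, so each p-value reflects library-to-library spread that may be technical.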

How the data were processed

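RNA of 2 time 0 and 2 cultured libraries was compared, grouped by sample title; the 2-day columns of the table name the culture but not the day and were matched through the titles. The authors deposited 1 table of TPM rounded to 2 decimals, each library summing to 1000000. Per the submitters' processing notes, the tools were Trim Galore 0.5.0, STAR 2.7.2b and RSEM 1.3.2, with genome build TAIR10. Strand setting and annotation release: not given in the sources used here. TPM keeps no depth, so the depth is unknown and no counting interval or count test was used. RSEM divides reads shared by several genes.

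From the table, the 19078 genes whose mean reached 1 TPM were fitted on log2(TPM + 1), a scale that understates the change of low genes, with limma 3.58.1 (R 4.3.3, mean-variance trend, 2 residual degrees of freedom, Benjamini-Hochberg adjustment over all tested genes, threshold 0.05, two-sided). The procedure was tested on simulated data. Replicates of a group correlated at 0.992 (time 0) and 0.984 (2 days) across genes, and none were identical. Summed levels, shares and ratios are descriptions without a test. Alternatives changed the pseudocount, filter, scaling, trend, replicate block and libraries.

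Names, coding sequences, promoters and overlaps came from RefSeq TAIR10.1 with Python 3.11.15 and Biopython 1.88. All 10 inhibitors matched by locus, and no coordinates are printed because the authors' build is TAIR10. Identities are from global alignment with BLOSUM62 and free end gaps. Figures were drawn with matplotlib 3.10.9. The 3 SMR loci that the reference does not annotate as kinase inhibitors were left out. The inhibitors and pathway lists were chosen with earlier results of these data known. Named genes are all inhibitors, CDKA;1, the D-type cyclins and, per list, the 2 called genes with the largest change in the majority direction and 1 in the other (after a tie, those that rose first); SMR7, FBL17 and the neighbours on the opposite strand were added after their values were seen.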

Additional observations from a re-analysis of the deposited data

How the results depend on the processing

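Of 12 alternatives, each left the 6 called inhibitors on their side of the threshold and in their direction wherever they had a value. The filter at a mean of 5 TPM gave 5 calls, because KRP3 and KRP7 then have no value. The highest limma adjusted p of a called inhibitor was 0.0341, for KRP3. The log2 ratio of summed KRP, 0.38 as deposited, was 0.24 after quantile normalization and 0.26 after rescaling without organelle and the 100 most abundant genes, and 0.34 to 0.42 without single libraries. That of summed SIM, SMR1 and SMR5, which rose through SMR1, was 0.91 as deposited, 0.79 after rescaling and 0.84 to 0.98 without single libraries. The cause was not tested, but under both scalings the all-gene median also shifted, from 0.09 to -0.06 (quantile) and -0.02 (rescaled), and the share of calls that were higher from 57.05% to 47.05% and 49.2%. KRP2 was between -0.12 and 0.02 over the alternatives. KRP7 ranged from -0.01 to 0.37 and SIM from -0.17 to 0.05, neither called.

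Pathway calls numbered 58 and 39 to 62 over the alternatives (39 to 56 without single libraries). Of the 58, 37 were called wherever they had a value, 21 lost the call in at least 1 alternative, and 0 changed sign. With a replicate block 7101 genes were higher and 5283 lower, 6 inhibitors stayed called and 53 pathway genes were called. Same-numbered libraries did not deviate together (correlation -0.07), so the numbers are not taken as pairs. Without a library its group has 1 left, which limma then assumes to vary like the other group. The depth and the strand setting are unknown, so a detection limit for SMR5 cannot be given.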
